A study of Mus musculus with 7 samples.

Results

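SET is a histone chaperone of the nucleosome assembly protein family. Its HA-tagged isoforms SETα and SETβ were mapped in mouse embryonic stem cells. All peaks of the SETα-HA and SETβ-HA chromatin immunoprecipitation sequencing (ChIP-seq) lists were taken, 2752 of the 6198 peaks of the series, 1186 of them from SETα and 1566 from SETβ. Each peak was called shared when it overlapped a peak of the other isoform list by at least 1 bp, and single-isoform otherwise, and the kinds were compared within 3 classes of peak width.

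Both libraries came from KH2 cells, an embryonic stem cell line built to carry transgenes that doxycycline switches on. The SETα cells over-expressed SETα and the SETβ cells SETβ, each after doxycycline at 1 μg/mL and 8 hours of expression, and both were precipitated with the same anti-HA antibody. The labels name no change to the endogenous gene in either. The third list used for comparison, 3446 peaks, came from R1 embryonic stem cells precipitated with an antibody against SET itself, with no doxycycline named. Each group was 1 library without a replicate, so no difference here was tested. How deeply each was sequenced is unknown.

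SET binds core histones and can shield their tails from acetylation as part of the INHAT (inhibitor of acetyltransferases) complex, and it is also an inhibitor of protein phosphatase 2A. SETα and SETβ arise from the same gene through different first exons, so they differ at the amino-terminal end and have in common the dimerisation helix, the histone-binding domain and the acidic tail. The HA tag, a short peptide, lets 1 antibody precipitate either isoform, so a comparison of the lists asks where the amino-terminal difference goes with a different set of called sites.

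The isoform lists met at 178 SETα peaks (15.0% of the SETα list) and 177 SETβ peaks (11.3% of the SETβ list), which form 178 overlapping pairs. The pairs are common to both shares, which differ because the lists differ in length. A single SETβ peak, at 2999969 to 3000745 on chromosome 9 (777 bp, score 318), overlapped more than 1 peak of the other list. Beneath it lay the SETα peaks 3000006 to 3000313 (308 bp, score 76.7) and 3000333 to 3000669 (337 bp, score 101). The score is the authors' own value for each peak, and its scale is not stated.

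Where the isoforms met, they met closely. The smallest overlap of any pair was 70 bp, although 1 bp would have counted, and the median was 139.5 bp (interquartile range 120 to 170 bp). The midpoints of paired peaks lay a median of 11.75 bp apart, and within 20 bp of each other in 109 of the 178 pairs. In 112 pairs the SETα peak lay wholly inside the SETβ peak, in 10 the SETβ peak lay inside the SETα peak, and 56 pairs overlapped in part. Only 12 pairs had midpoints more than 100 bp apart, and 8 of these were in 4 dense windows described further on.

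Paired SETβ peaks were the wider ones. The SETβ peak was wider than its SETα partner in 140 pairs and narrower in 38, with a median difference of 30.5 bp (interquartile range 8 to 59 bp). The whole lists differed by about as much, with median widths of 223.5 bp for SETα and 256 bp for SETβ and shortest peaks of 97 and 113 bp. Equal width classes therefore do not hold the same sites in both lists. Of the 95 pairs whose SETα peak was under 150 bp, 28 had a SETβ peak under 150 bp, 59 had one of 150 to 249 bp and 8 had one of 250 bp or more.

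Scores of paired peaks went together, with a Spearman correlation of 0.66 over 178 pairs and 0.64 over the 142 pairs outside the dense windows. This is a description across sites of the same pair of libraries, and no anti-HA library of untagged cells was used, so background that recurs in both cannot be told apart from binding of both isoforms. The SETβ score was the higher in 100 pairs and the SETα score in 77. By percentile of score within each list, which does not depend on the scale of the score, SETβ was higher in 90 and SETα in 88. In 59 pairs both peaks were in the top 10% of their list, and in 8 pairs the percentiles lay more than 50 points apart.

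**Figure D1:**
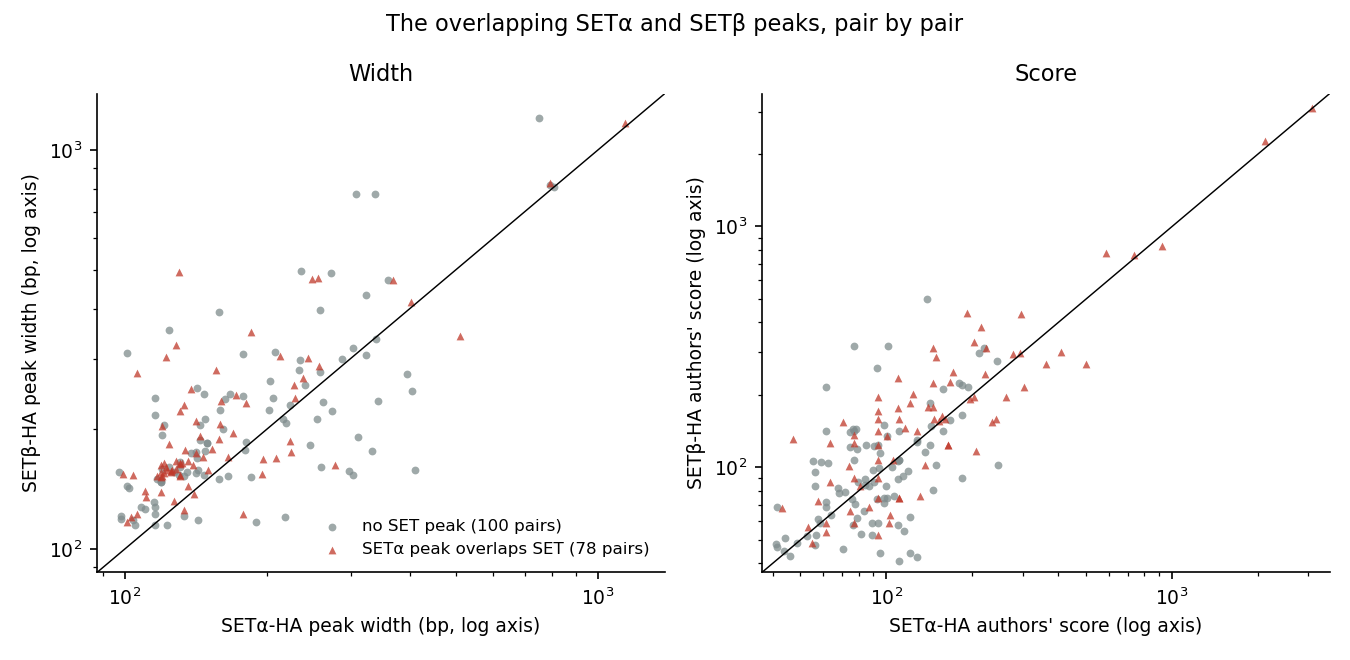
Width (left, bp) and authors' score (right) of the SETα peak (x axis) and SETβ peak (y axis) of each of the 178 overlapping pairs, on log axes with the line of equality. Triangles mark the 78 pairs whose SETα peak overlaps a SET peak of R1 cells; most points lie above the line for width, 140 of 178, and on both sides of it for score.

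The pairs with the smallest sum of ranks in each SETα width class show the leading shared sites. Under 150 bp they were chromosome 16 at 30829596 to 30829741, ranked 11 for SETα and 10 for SETβ, and chromosome 7 at 86536817 to 86536946, ranked 7 and 19. On chromosome 7 the SETα peak was 130 bp wide and lay within a SETβ peak of 493 bp. In the middle class they were chromosome 2 at 98505173 to 98505400, ranked 3 in both lists, and chromosome 6 at 103599068 to 103599311, ranked 4 and 5. Among peaks of 250 bp or more they were both on chromosome 2, at 98506374 to 98507511 and 98502365 to 98503156, ranked 1 and 2 in each list. The first scored 3100 in both lists, which was the maximum of each. Whether the scale can run higher is unknown, so this match does not show equal signal for the isoforms. All the chromosome 2 pairs named here lay in 1 of the dense windows, so they are not separate parts of the genome. All 6 SETα peaks also overlapped a SET peak of R1 cells.

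A few shared sites ranked very differently. SETα stood far higher on chromosome 10 at 37540227 to 37540368 (score 128, percentile 93.8), where the SETβ score of 42.3 lay at percentile 4.89. It did so too on chromosome 13 at 23492673 to 23493076 (percentile 88.7 against 2.87) and on chromosome 4 at 152527152 to 152527357 (93.1 against 7.34). SETβ stood far higher at the sites of the SETα peaks on chromosome 5 at 77601431 to 77601541 (score 131 and percentile 92.3, against 46.9 and 11.5 for SETα), chromosome 8 at 19722446 to 19722653 (70.02 against 1.35) and chromosome 13 at 44964927 to 44965067 (69.1 against 3.25). None of the 3 SETα-leaning sites overlapped a SET peak, and the SETβ-leaning sites on chromosomes 5 and 13 did. These are the extremes of 178 pairs and have no replicate.

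Sharing depended on width in each list, but not in the same classes. For SETα, 95 of 276 peaks under 150 bp were shared (34.4%, 95% Wilson interval 29.1 to 40.2%), against 49 of 508 peaks of 150 to 249 bp (9.65%, 7.37 to 12.5%) and 34 of 402 peaks of 250 bp or more (8.46%, 6.12 to 11.6%). For SETβ, 31 of 194 peaks under 150 bp were shared (15.98%, 11.5 to 21.8%), 102 of 546 in the middle class (18.7%, 15.6 to 22.2%) and 44 of 826 of 250 bp or more (5.33%, 3.99 to 7.08%). The narrow class thus held 53.4% of the shared SETα peaks, while the middle class held 57.6% of the shared SETβ peaks. Intervals cover the counting of peaks only, since peaks of 1 library are not replicates.

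The difference between the narrowest and the widest class was 25.96 percentage points for SETα (95% Newcombe interval 19.8 to 32.2) and 10.7 points for SETβ (5.84 to 16.6). It did not hold once low scores were removed: among peaks scoring 60 or more it was 5.58 points for SETα (-6.23 to 15.9) and -9.48 points for SETβ (-18.9 to -0.64). With limits at 200 and 300 bp the SETα difference was -10.3 points (-23.5 to 1.50). Of the 60 SETα peaks of 300 bp or more, 22 were shared (36.7%), and 15 of these 22 lay in the dense windows. Of the 342 from 250 to under 300 bp, 12 were shared (3.51%).

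Peaks just on either side of the class limits differed as well. Of the SETα peaks within 10 bp under 150 bp, 19 of 44 were shared, against 8 of 38 in the next 10 bp. For SETβ the order was the opposite, 7 of 55 below the limit and 32 of 93 above it. In both lists the more shared side also had the higher median score. It was 77.07 below against 61.29 above the limit for SETα, and 90.33 below against 106.89 above it for SETβ. The part of score in these orders was not tested. At 250 bp the shares were close, 4 of 87 and 5 of 101 for SETα and 5 of 64 and 4 of 67 for SETβ.

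**Figure D2:**
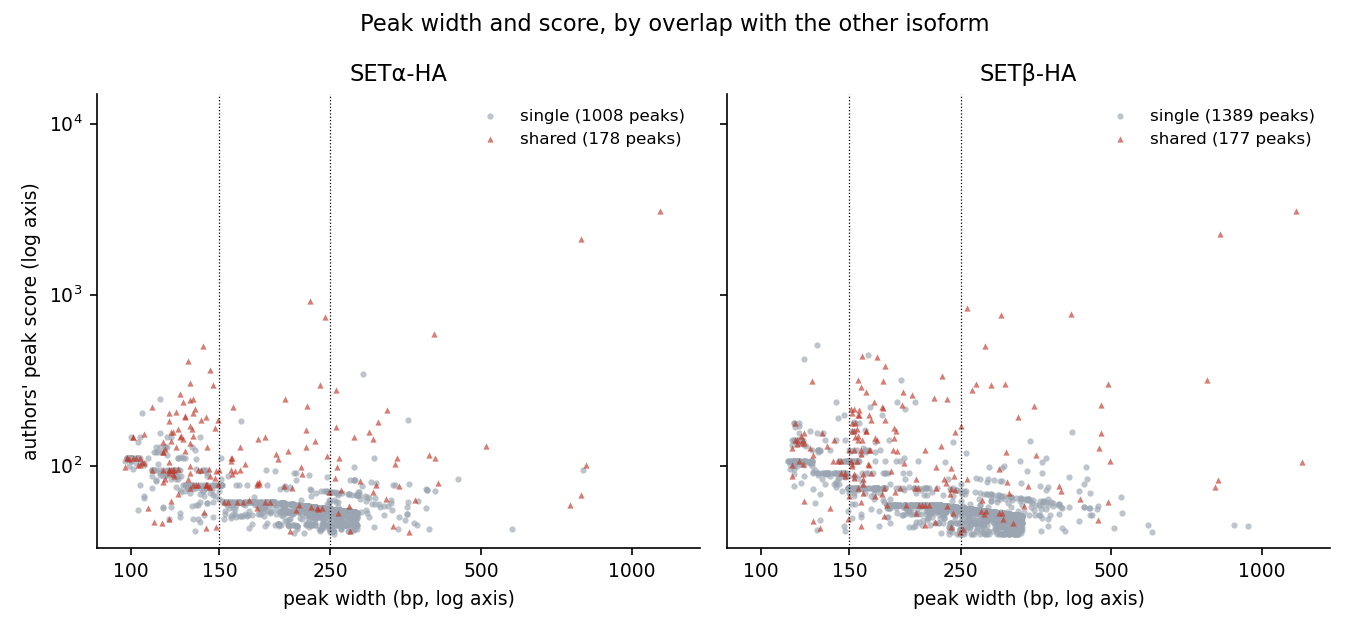
Width (x axis, bp, log) and authors' score (y axis, log) of every SETα peak (left) and SETβ peak (right), with dotted lines at the class limits of 150 and 250 bp. Flat bands of equal score run from narrow and high to wide and low, and shared peaks (red triangles) have a higher median score than single-isoform peaks (grey circles) in each width class, 92.6 against 56.5 in the SETα middle class.

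Narrow peaks scored higher in both lists, with a Spearman correlation between width and score of -0.54 across SETα peaks and -0.62 across SETβ peaks. Within a width class, shared peaks scored higher than single-isoform peaks in both lists. For SETα the median score of shared against single-isoform peaks was 109.5 against 92.7 under 150 bp, 92.6 against 56.5 in the middle class and 99.04 against 53.4 at 250 bp or more. For SETβ it was 115 against 106 under 150 bp, 120 against 59.02 in the middle class and 100.4 against 51.8 at 250 bp or more. The separation was thus least among the narrow peaks. When 1 shared and 1 single-isoform peak of the same class are drawn, the shared one had the higher score in 67.8%, 88.04% and 86.5% of SETα draws from the narrow to the wide class, with ties counted equally to each side. For SETβ these values were 58.7%, 81.6% and 87.3%.

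Scores of 100 or more were held by 158 SETα peaks (13.3% of the list) and 252 SETβ peaks (16.1%). Among SETα peaks of the middle class, 20 of 49 shared and 2 of 459 single-isoform peaks reached it, a difference of 40.4 points (27.7 to 54.3). Among those of 250 bp or more, 17 of 34 shared and 3 of 368 single-isoform peaks did, 49.2 points apart (33.2 to 65.1). Among those under 150 bp it was 53 of 95 against 63 of 181, a difference of 20.98 points (8.65 to 32.6). The SETβ differences were 45.8 points in the middle class (35.6 to 55.4) and 49.2 points in the wide class (35.04 to 63.4). Under 150 bp the SETβ difference was 12.7 points (-6.33 to 27.7), with 22 of 31 shared and 95 of 163 single-isoform peaks at 100 or more, so its interval includes 0. Summed over the width classes, the Mantel-Haenszel difference was 33.6 points for SETα (25.6 to 41.5) and 41.04 points for SETβ (33.6 to 48.5).

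Taking width and score at once shows where the lists coincide most. At scores of 100 or more, 20 of 22 SETα peaks of the middle class (90.9%, 72.2 to 97.5%) and 17 of 20 of the wide class (85%, 63.96 to 94.8%) had a SETβ peak, against 53 of 116 narrow ones (45.7%, 36.9 to 54.7%). In the SETβ list 22 of 28 wide peaks (78.6%, 60.5 to 89.8%), 58 of 107 middle peaks (54.2%, 44.8 to 63.3%) and 22 of 117 narrow peaks (18.8%, 12.8 to 26.8%) had a SETα peak. At scores under 60 the narrow class was instead the most shared in both lists. Of SETα peaks under 60, 7 of 23 narrow peaks were shared (30.4%, 15.6 to 50.9%), against 8 of 342 middle (2.34%, 1.19 to 4.55%) and 6 of 320 wide ones (1.88%, 0.86 to 4.03%). Of SETβ peaks under 60, 4 of 9 narrow peaks were shared (44.4%, 18.9 to 73.3%). In the middle class it was 15 of 300 (5%, 3.05 to 8.08%) and in the wide class 10 of 707 (1.41%, 0.77 to 2.58%). The narrow SETβ value rests on few peaks. The 4 include 3002944 to 3003074 and 3011762 to 3011910 of chromosome 9, both in a dense window.

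**Figure D3:**
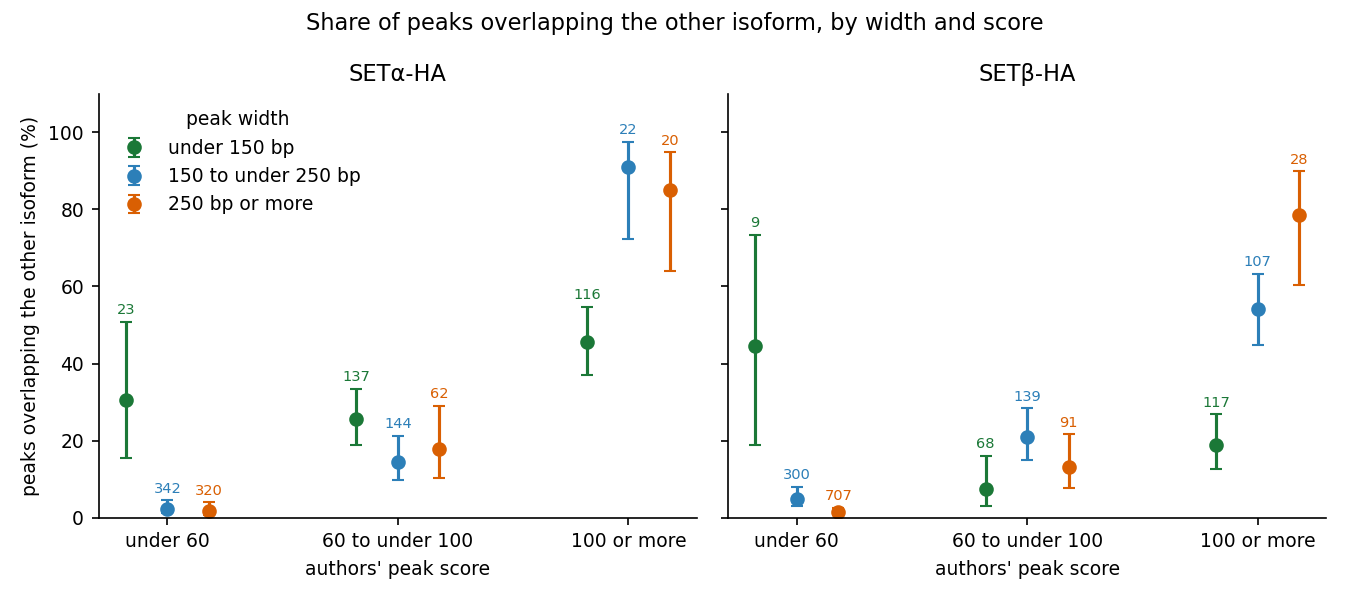
Share of SETα peaks (left) and SETβ peaks (right) that overlap the other isoform list, by authors' score (x axis) and width class (colour), with 95% Wilson intervals and the number of peaks above each. At scores of 100 or more the narrow peaks are the least shared, at 45.7% and 18.8%. At scores under 60 they are the most shared, but number only 23 for SETα and 9 for SETβ.

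By rank within each list, which is free of the scale of the score, the isoforms had similar shares at the top. Of the highest 10% of peaks, 75 of 133 SETα peaks (56.4%, 47.9 to 64.5%) and 87 of 157 SETβ peaks (55.4%, 47.6 to 62.97%) were shared. In the next 10% the shares were 42 of 104 for SETα (40.4%, 31.5 to 49.99%) and 24 of 156 for SETβ (15.4%, 10.6 to 21.9%). The intervals do not overlap there, but large groups of peaks with 1 score fell differently. The SETβ step held the scores 90.33 (39 peaks, 3 shared) and 106.89 (65 peaks, 5 shared). The SETα step held 93.52 (35 peaks, 11 shared), while 110.55 (39 peaks, 6 shared) fell in the highest 10%. How much of the contrast goes with the placing of these groups was not tested. The median width was 122 bp in that SETα step and 142.5 bp in that SETβ step.

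Many peaks carried exactly the same score as others of their list, to the decimals deposited. In the SETα list 6 scores were each held by 30 or more peaks, 275 peaks together, of which 27 were shared (9.82%, 6.84 to 13.9%). In the SETβ list 6 scores covered 342 peaks, of which 17 were shared (4.97%, 3.13 to 7.82%). The higher the recurring score, the narrower its peaks. From 53.25 through 61.29, 77.07 and 93.52 to 110.55, the median widths of the SETα peaks were 243, 173.5, 141.5, 121 and 100 bp. From 45.85 through 59.02, 74.34 and 90.33 to 106.89, those of the SETβ peaks were 301, 204.5, 169, 144 and 126 bp. These steps form the flat bands in the plot of width against score.

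Peaks whose score no other peak of the list held were shared far more often. For SETα, 117 of 418 such peaks were shared (27.99%, 23.9 to 32.5%), against 27 of 285 whose score was held by 10 peaks or more (9.47%, 6.59 to 13.4%). For SETβ the counts were 106 of 479 (22.1%, 18.6 to 26.1%) and 29 of 425 (6.82%, 4.79 to 9.63%). Scores held by 2 to 9 peaks lay no higher, with 34 of 483 SETα (7.04%) and 42 of 662 SETβ peaks (6.34%) shared. Over all widths, sharing thus did not fall step by step with recurrence. Within width classes it did, except in the SETα middle class (4.41% for 2 to 9 peaks, 7.41% for 10 or more). The contrast between the end groups was strong among narrow peaks scoring 100 or more. There, 37 of 49 SETα peaks with a score of their own were shared (75.5%, 61.9 to 85.4%, median score 149), against 4 of 36 that scored 110.55 (11.1%, 4.41 to 25.3%). For SETβ it was 14 of 29 (48.3%, 31.4 to 65.6%, median score 133) against 6 of 65 whose score was held by 10 peaks or more (9.23%, 4.30 to 18.7%, median score 107). The groups differ in score as well, so the part of recurrence beyond score was not tested.

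The SET list of R1 cells is a readout that the division into shared and single-isoform peaks did not use. It overlapped 114 SETα peaks (9.61%) and 147 SETβ peaks (9.39%). In every width class of both lists the shared peaks overlapped it more often. For SETα the shares were 47 of 95 shared against 23 of 181 single-isoform peaks under 150 bp (a difference of 36.8 points, 25.4 to 47.5). In the middle class they were 23 of 49 against 7 of 459 (45.4 points, 32.1 to 59.1), and at 250 bp or more 8 of 34 against 6 of 368 (21.9 points, 10.6 to 38.4). For SETβ the differences were 21.4 points under 150 bp (5.74 to 39.5), 39.4 points in the middle class (29.6 to 49.2) and 39.2 points at 250 bp or more (25.97 to 53.9). Over the width classes the Mantel-Haenszel difference was 36.2 points in each list (28.5 to 43.8 for SETα, 28.7 to 43.7 for SETβ).

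**Figure D4:**
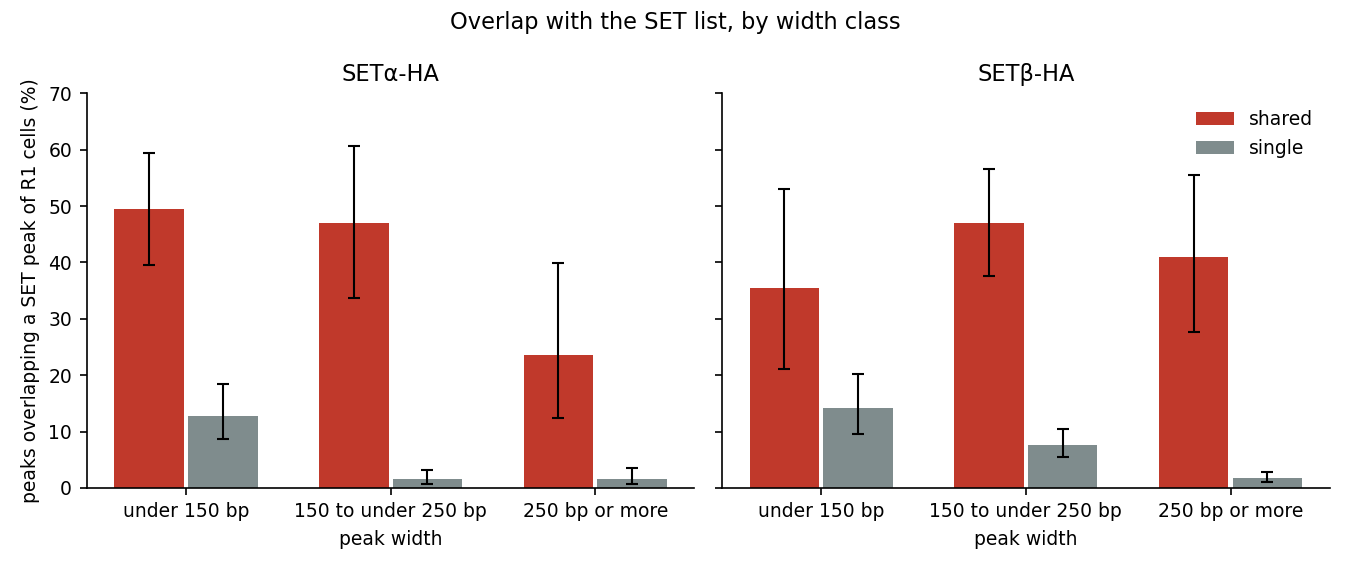
Share of SETα peaks (left) and SETβ peaks (right) that overlap a SET peak of R1 cells, in 3 width classes (x axis), for peaks shared by the isoforms (red) and single-isoform peaks (grey); bars start at 0 and whiskers are 95% Wilson intervals. Shared bars stand above single-isoform bars in each class, 49.5% against 12.7% for narrow SETα peaks and 35.5% against 14.1% for narrow SETβ peaks.

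When the peaks were divided by score as well as width, the difference kept its sign and was smaller, above all for SETβ. Over 9 classes of both, a division chosen after seeing the data, it was 30.5 points for SETα (22.1 to 38.97) and 18.8 points for SETβ (10.6 to 27.01). Wide SETα peaks under 60 (-1.59 points, -3.67 to 37.5) and wide SETβ peaks of 60 to under 100 (-3.06 points, -14.3 to 24.5) had the opposite sign, with intervals that include 0. Among narrow SETα peaks scoring 100 or more, 31 of 53 shared and 7 of 63 single-isoform peaks overlapped SET (47.4 points, 30.6 to 60.9). Among narrow SETβ peaks of that score it was 9 of 22 and 17 of 95 (23.01 points, 3.24 to 44.4). At that score the intervals of the middle and wide classes include 0 in both lists. The SETβ middle class, the best filled of these, had 35 of 58 shared and 23 of 49 single-isoform peaks on SET (13.4 points, -5.36 to 31.0). The SETβ wide class had a difference of 30.3 points (-11.8 to 59.2), and the SETα middle and wide classes, with 2 and 3 single-isoform peaks, had 65 points (-4.25 to 81.9) and 41.2 points (-18.3 to 64.0). The R1 library had another antibody and another cell line than the KH2 libraries. No input peak list was used, so the part of sites that collect reads in any library was not tested.

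The pairs that also met a SET peak had closer midpoints and higher scores by the median. In the 78 pairs with a SET peak at either isoform, midpoints lay a median of 9.75 bp apart (interquartile range 2.63 to 26.8 bp), against 16 bp (5.38 to 51.6 bp) in the 100 pairs without. The dense windows held 36 of all pairs and 8 of the 12 pairs with midpoints over 100 bp apart. Only 6 SETα peaks of the windows overlapped SET. The pairs without SET also had wider peaks, with medians of 158.5 against 136 bp for SETα and 186 against 169.5 bp for SETβ. Whether the closer midpoints hold outside the windows or at equal width was not tested. Median scores in the pairs with SET were 126 for SETα and 157 for SETβ, against 91.45 and 91.3 in those without. The groups overlapped widely, with SETα scores from 43 to 3100 in the first and from 41.01 to 245 in the second.

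High peaks found for 1 isoform only were not alike in the lists. Of the 68 single-isoform SETα peaks scoring 100 or more, 63 were under 150 bp, 2 were in the middle class and 3 were of 250 bp or more, and 7 overlapped SET (10.3%, 5.08 to 19.8%). Of the 150 such SETβ peaks, 95 were narrow, 49 were in the middle class and 6 were wide, and 42 overlapped SET (28%, 21.4 to 35.7%). The SETβ middle class held 23 of those 42. A score of 100 need not mean the same in both libraries, so these numbers describe each list and do not measure a difference between the isoforms.

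The leading single-isoform SETα peaks were on chromosome 8 at 72397884 to 72397997 with a score of 246 and chromosome 14 at 68056040 to 68056144 with 202, both under 150 bp. In the middle class they were on chromosome 2 at 98034371 to 98034536 (183) and chromosome 7 at 65313671 to 65313821 (111), the latter 1 bp over the class limit with a width of 151 bp. Of 250 bp or more, they were on chromosome 9, at 3032378 to 3032734 with a score of 184, and on chromosome 2, at 181747456 to 181747746 with 341. SET peaks overlapped none of the 6. The one on chromosome 9 was in a dense window. Its nearest SETβ peak lay 2.08 kb away, and those of the other 5 lay between 27.3 and 599.9 kb away.

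Of the 6 leading single-isoform SETβ peaks, 4 overlapped SET. Under 150 bp they were on chromosome 11 at 64496023 to 64496151 (506) and chromosome 16 at 84490232 to 84490353 (419), with the nearest SETα peaks 980 and 1882 kb away. In the middle class they were on chromosome X at 62071440 to 62071602 (441) and chromosome 11 at 29057737 to 29057926 (314), 1023 and 105 kb from a SETα peak. Of 250 bp or more, they were both on chromosome 8, at 20020321 to 20020738 (158) and 54268544 to 54268887 (139), 55.2 and 356 kb away. The peaks on chromosomes 16 and X, the second on chromosome 11 and the first on chromosome 8 overlapped SET.

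Single-isoform peaks were seldom near misses. Counted in bp between nearest ends, 55 of 1008 single-isoform SETα peaks lay within 10 kb of a SETβ peak (5.46%, 4.22 to 7.04%), and 57 of 1389 single-isoform SETβ peaks lay within 10 kb of a SETα peak (4.10%, 3.18 to 5.28%). Only 20 and 18 lay within 1 kb. How many would lie that near from the spacing of the other list alone was not worked out. These shares are therefore neither high nor low against a reference. The median gap was 452 kb for SETα (interquartile range 160 to 1013 kb) and 645 kb for SETβ (228 to 1393 kb). A gap depends on how dense the other list is. Divided by the mean spacing of the other list on the same chromosome, the median gaps were close, 0.31 for SETα and 0.33 for SETβ.

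The closest approaches without overlap were few, and the peaks named here scored between 42.6 and 70.3. On chromosome Y, the SETα peak at 2882721 to 2883296 and the SETβ peak at 2883320 to 2884198 lay 23 bp apart with scores of 42.6 and 44.7, and both overlapped SET. On chromosome 11, the SETα peak at 68854454 to 68854737 (70.3) and the SETβ peak at 68854774 to 68854979 (52.1) were 36 bp apart. On chromosome 3, the SETα peak at 148715439 to 148715666 (52.7) stood 28 bp from a SETβ peak that overlapped a different SETα peak. On chromosome 13, the SETβ peak at 21948016 to 21948209 (59.02) stood 50 bp from the SETα peak at 21947689 to 21947965 (53.4). These gaps lie just outside the overlap rule, and the smallest overlap just inside it was 70 bp.

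Narrow single-isoform peaks stood farther from the other isoform by the median gap in kb, and the lists differed at short range. The median gap of narrow single-isoform peaks was 578 kb for SETα and 866 kb for SETβ, against 429 and 608 kb for those of 250 bp or more. Divided by the mean spacing of the other list, the SETα medians were close, 0.322 narrow and 0.306 wide. For SETβ they were 0.396 and 0.320. Within 10 kb lay 15 of 181 narrow SETα peaks (8.29%, 5.09 to 13.2%) and 2 of 163 narrow SETβ peaks (1.23%, 0.34 to 4.36%). The narrow SETα peaks within 10 kb had a median score of 67.2, against 93.5 for those farther away, and 6 of the 15 lay in the dense windows. Among wide peaks the median scores within and beyond 10 kb were 53.8 and 53.4 for SETα and 50.8 and 51.8 for SETβ. Within 1 kb of the other isoform lay 20 SETα and 18 SETβ single-isoform peaks, and none scored 100 or more. Among all single-isoform peaks 68 of 1008 SETα and 150 of 1389 SETβ peaks did, so few would be found in groups of that size.

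**Figure D5:**
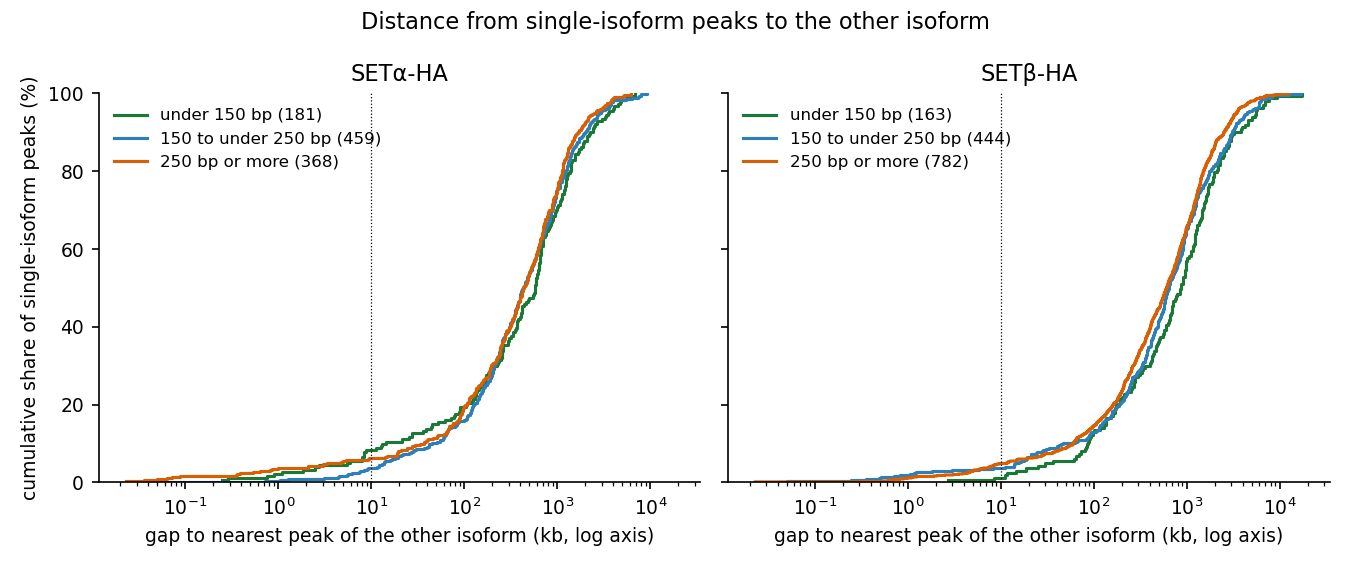
Cumulative share (y axis, percent) of single-isoform SETα peaks (left) and SETβ peaks (right) by gap to the nearest peak of the other isoform (x axis, kb, log), in 3 width classes with the number of peaks in each; the dotted line marks 10 kb. The curves stay low up to 10 kb, at 5.46% of all SETα and 4.10% of all SETβ single-isoform peaks, and climb between 100 kb and 1 Mb or more.

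Sharing was uneven over the genome. The 4 dense windows were 98 to 99 Mb of chromosome 2, 3 to 4 Mb of chromosome 9, 19 to 20 Mb of chromosome 8 and 21 to 24 Mb of chromosome 13. Together they held 63 SETα peaks, 36 of them shared, and 61 SETβ peaks, 35 of them shared. Of the 63 SETα peaks there, 6 overlapped SET, and of the 61 SETβ peaks 5 did. In the whole lists it was 114 of 1186 and 147 of 1566, so the pooled windows were rich in shared peaks but not in SET overlap. They were not alike. In the chromosome 2 window 3 of 6 SETα and 3 of 4 SETβ peaks overlapped SET, in the chromosome 8 window 0 of 11 and 0 of 10. Shared SETα peaks were 18 of 23 in the chromosome 9 window and 3 of 11 in the chromosome 8 window. Without the windows, the difference in SET overlap between shared and single-isoform peaks within width classes was larger. It was 42.6 points for SETα (33.9 to 51.4) and 43.1 points for SETβ (34.6 to 51.5). The chromosome 9 window alone held 18 of the 25 shared SETα peaks of that chromosome. Outside the windows, 12.6% of SETα and 9.44% of SETβ peaks were shared.

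With chromosomes 1 and 8 pooled, where both isoform lists are dense, peaks were shared less often than on the other chromosomes pooled. For SETα it was 25 of 303 peaks (8.25%) against 153 of 883 (17.3%), and for SETβ 25 of 400 (6.25%) against 152 of 1166 (13.04%). Within width classes the Mantel-Haenszel difference was -6.40 points for SETα (-10.2 to -2.57) and -5.85 points for SETβ (-8.88 to -2.82). The classes were uneven. The SETβ middle class had 13 of 133 against 89 of 413 shared (-11.8 points, -17.6 to -4.53), while narrow SETβ peaks had 5 of 30 against 26 of 164 (0.81 points, -10.5 to 18.4). Without the dense windows the difference over classes was -3.50 points for SETα (-7.12 to 0.13), which includes 0, and -4.25 points for SETβ (-7.13 to -1.37). Among peaks scoring 60 or more it was -4.76 points for SETα (-14.97 to 5.45) and -6.40 points for SETβ (-15.3 to 2.49). When peaks were divided by score too, the difference was -2.08 points for SETα (-5.41 to 1.26) and -2.56 points for SETβ (-5.18 to 0.06), and both intervals include 0. Chromosome 1 held 10 pairs among 165 SETα and 238 SETβ peaks, while chromosome 3 held 12 among 50 and 84. No peak of chromosome Y, with 5 in each list, was shared.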

How the data were processed

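Peak lists of 3 of the 7 ChIP-seq samples were used; the inputs and the histone H1 samples were left out. The aligner Bowtie 0.12.7, the peak caller MACS 1.4 and build mm9 are named per the submitters' processing notes, without parameters or control libraries. The deposited lists, 1 per library, hold positions and the authors' score, whose scale is not stated. Depth is unknown, so intervals cover the counting of peaks only.

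Positions count from 1. Overlap, gaps, classes and ranks were computed with Python 3.11.15, numpy 2.4.6 and pandas 2.3.3, and checked on simulated lists. Shares have 95% Wilson intervals, and differences have Newcombe or Mantel-Haenszel (Sato variance) intervals. With 1 library per isoform no test was run. Sites were named by fixed rules: the 2 highest single-isoform peaks and the 2 leading pairs per width class, the 3 closest single-isoform peaks per list, the 3 largest percentile differences each way, and peaks with several partners. Members, windows and rules were chosen with earlier results of these data known. The gene and sequence tables were on GRCm38, so peaks were not assigned to genes and no sequence is shown.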

Additional observations from a re-analysis of the deposited data

How the results depend on the processing

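Of 84 values under alternative settings for 12 results, 65 stayed within the interval of the reported value, 17 left it with the same sign and 2 changed sign. The shared share of SETα and SETβ was 27.9% and 25.3% among peaks scoring 60 or more, and 12.6% and 9.44% without the dense windows; with the SETβ list cut to the length of the SETα list the SETβ share was 13.9%. The narrow minus wide difference was 5.58 points for SETα and -9.48 for SETβ at scores of 60 or more, and -10.3 for SETα with limits of 200 and 300 bp; the cause was not tested. Single-isoform peaks within 10 kb made up 3.54% of SETα and 2.84% of SETβ peaks when those within 1 kb counted as shared, 3.05% and 2.68% at scores of 60 or more, and 3.98% and 2.93% without the windows. Within 100 kb lay 17.9% and 13.9%. With 9 classes of width and score, added after seeing the data, the SETβ difference in SET overlap was 18.8 points, and the chromosome 1 and 8 differences were -2.08 and -2.56 points. No paired analysis was possible because each group has 1 library, and none could be left out. Unknown depth limits every statement that a peak is missing from a list.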
